A study of Mus musculus with 9 samples.

Results

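The 10 genes described here encode proteins by which dendritic cells are recognized or formed: *Flt3*, *Zbtb46*, *Irf8*, *Batf3*, *Irf4*, *Xcr1*, *Clec9a*, *Itgae*, *Cd209a*, and *Dpp4*. They were taken by gene symbol from the deposited count values, in which all 10 were among the 50559 genes listed. All 10 also passed the filter on low counts and were among the 16618 genes tested. The libraries were made from CD45+CD11b+ cells sorted from the quadriceps of *mdx* mice, which lack dystrophin and model Duchenne muscular dystrophy. All mice were *mdx* and 4.5 weeks old, and they had been given vehicle (drinking water flavored with sucralose), the mineralocorticoid receptor antagonist spironolactone, or the glucocorticoid prednisolone for 7 days. Each group had 3 libraries, and each library held cells pooled from 3 pairs of quadriceps, so that a replicate is a pool of mice and not 1 animal. Each group had mice of both sexes, and the sexes within a pool are not given in the sources used here. No healthy mice were sequenced in these libraries.

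Dendritic cells take up antigen in tissues, carry it to lymph nodes, and present it to T cells on MHC class II. They arise from bone marrow progenitors under the cytokine Flt3 ligand. Conventional dendritic cells fall into type 1 cells (cDC1), which depend on the transcription factors IRF8 and BATF3 and cross-present antigen from dead cells, and type 2 cells (cDC2), which depend more on IRF4. A further kind, monocyte-derived dendritic cells, carries CD209a and appears in inflamed tissue such as dystrophic muscle. CD11b is carried by type 2 and monocyte-derived dendritic cells and by macrophages, monocytes, and neutrophils, whereas type 1 cells usually carry little of it. Several of these genes are not limited to dendritic cells: *Irf8* is also used by monocytes, macrophages, and B cells, and *Zbtb46* is also found in endothelium.

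The libraries held 31469815 to 32943512 counts on genes, and the members had from 91 counts (*Xcr1*, *Clec9a*, and *Itgae* being the lowest) to 9794 counts (*Irf8*) in a library. The genes of the sorted surface proteins were present in every library, with *Ptprc* (CD45) at 545 to 660 CPM and *Itgam* (CD11b) at 978 to 1486 CPM (counts scaled to the TMM-normalized library total). *Itgam* was at 1044 ± 109 CPM with spironolactone, 1237 ± 99.7 with vehicle, and 1407 ± 110 with prednisolone (mean ± SD, n = 3 libraries for this and all later means). On the first principal component of log2 CPM (32.3% of the variance) vehicle replicate 3 lay among the spironolactone libraries. Vehicle replicate 1 stood apart on the second component and spironolactone replicate 1 on the third. Macrophage markers were abundant in all libraries, with a summed level over 10 genes of 8563 to 11376 CPM, far above the levels of the dendritic cell genes. In such bulk RNA, fewer cells of a type and less RNA per cell cannot be told apart.

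To compare levels between genes, length-normalized levels (TPM) were computed from the counts and the length of each gene's canonical transcript in GENCODE. In vehicle libraries *Irf8* had the highest level per length, at 133 ± 13.9 TPM. *Cd209a* came next at 48.0 ± 8.28 TPM and then *Batf3* at 19.7 ± 3.45 TPM. *Flt3* (11.0 ± 2.17), *Irf4* (8.89 ± 2.38), and *Dpp4* (7.06 ± 0.799 TPM) followed, and the libraries of *Flt3* and *Irf4* overlapped in level, as did those of *Irf4* and *Dpp4*. *Zbtb46* (3.11 ± 0.203 TPM) and *Clec9a* (2.89 ± 0.512) overlapped, and so did the lowest pair, *Xcr1* (1.81 ± 0.284) and *Itgae* (1.80 ± 0.557). The genes that mark type 1 cells at the surface were thus among the lowest of the 10, whereas *Irf8*, which other myeloid cells also use, was the highest. With spironolactone *Irf8* and *Cd209a* again led, at 144 ± 5.14 and 86.4 ± 24.8 TPM, and with prednisolone they were at 113 ± 6.99 and 78.5 ± 9.75 TPM. With the summed exons of all transcripts as length, *Cd209a* came before *Irf8* in both drug groups (142 and 128 TPM against 132 and 103) and *Zbtb46* became the lowest in all 3 groups.

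**Figure D1:**
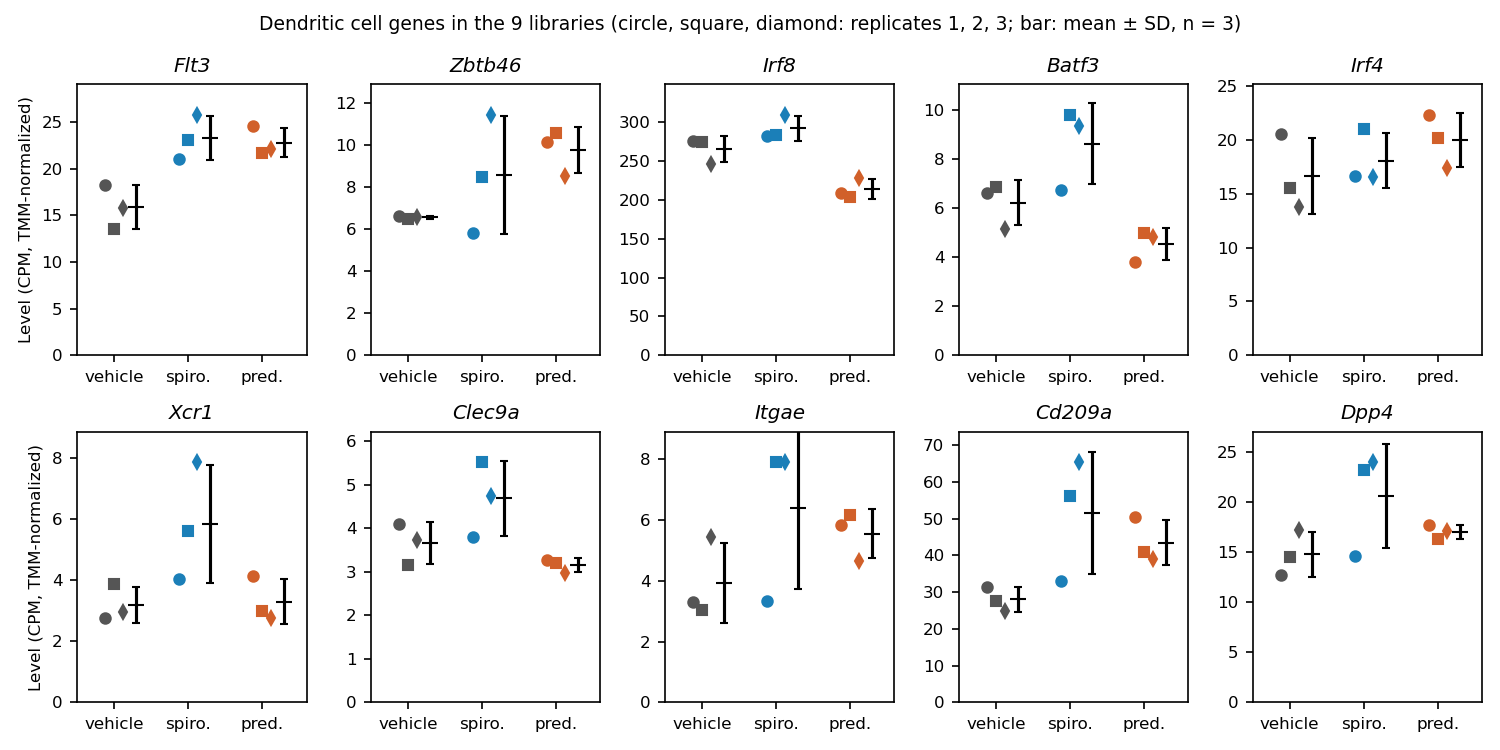
Level of each of the 10 genes (CPM) in the 3 vehicle, 3 spironolactone, and 3 prednisolone libraries, drawn from 0, with the group mean and SD as black bars. The prednisolone libraries lie below all others for *Irf8* (204 to 228 CPM) and *Batf3* (3.80 to 5.01 CPM), and the vehicle libraries lie below all others for *Flt3* (13.6 to 18.2 CPM) and *Cd209a* (24.8 to 31.5 CPM).

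Differences between groups were tested with the quasi-likelihood test of edgeR on the counts of all 9 libraries, and a gene was taken as called where its *P*, adjusted by Benjamini-Hochberg over all genes tested, was under 0.05. The direct comparison of the drugs asked whether mineralocorticoid receptor antagonism and glucocorticoid treatment left these genes at different levels. *Irf8* and *Batf3*, the pair of transcription factors on which type 1 dendritic cells depend, were higher with spironolactone than with prednisolone, by 1.37-fold and 1.90-fold. They were the only 2 of the 10 genes called in any comparison in this fit, and both were called in that direction. Among all genes tested, 5.17% were called in this comparison and 2.38% were higher with spironolactone.

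*Irf8*, the interferon regulatory factor needed for type 1 and plasmacytoid dendritic cells and for monocytes, was at 277, 275, and 246 CPM in the vehicle libraries, 282, 284, and 310 in the spironolactone libraries, and 209, 204, and 228 in the prednisolone libraries. The 3 groups did not overlap, in the order prednisolone, vehicle, spironolactone. The log2 fold change of spironolactone against prednisolone was 0.45 ± 0.09 (SE; 95% confidence interval 0.26 to 0.64; adjusted *P* = 0.0129). Against vehicle, *Irf8* gave −0.32 ± 0.09 with prednisolone (unadjusted *P* = 0.00346, adjusted *P* = 0.100) and 0.14 ± 0.09 with spironolactone (adjusted *P* = 0.693), neither of which passed the test.

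*Batf3*, an AP-1 family factor that pairs with IRF proteins and sustains *Irf8* in type 1 cells, was lower by far in counts. It was at 6.63, 6.86, and 5.17 CPM with vehicle, 6.74, 9.83, and 9.37 with spironolactone, and 3.80, 5.01, and 4.81 with prednisolone. All prednisolone libraries lay below all others, and spironolactone replicate 1 lay within the vehicle range. Spironolactone against prednisolone gave a log2 fold change of 0.93 ± 0.20 (95% confidence interval 0.50 to 1.36; adjusted *P* = 0.0187). Against vehicle, the values were −0.45 ± 0.20 for prednisolone (adjusted *P* = 0.316) and 0.47 ± 0.20 for spironolactone (adjusted *P* = 0.477). In the annotation 29.4% of the exon bases of *Batf3* are shared with a noncoding gene on the opposite strand (*Gm70128*). The strand setting of the counting is not given in the sources used here, so that reads of the pair cannot be told apart. *Irf8* shares no exon bases with another gene.

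Both calls ended when single libraries were left out, in fits where the calls over all genes went from 859 to between 232 and 412. The call of *Irf8* was lost without spironolactone replicate 3 (adjusted *P* = 0.0663), prednisolone replicate 1 (0.0633), or prednisolone replicate 2 (0.0773), and the log2 fold change stayed between 0.40 and 0.50 over all 16 alternatives. The call of *Batf3* was lost without spironolactone replicate 2 or 3 or any 1 prednisolone library (adjusted *P* = 0.0537 to 0.0898), with log2 fold changes of 0.81 to 1.08 over the alternatives.

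*Irf8* lies on chromosome 8 (GRCm39, as for all positions given here, 121463096 to 121485659, plus strand, 9 exons in its canonical transcript) and *Batf3* on chromosome 1 (190830044 to 190841142, plus strand, 3 exons). Because these 2 genes differed together between the drugs, the 250 bases upstream of the start of each canonical transcript are shown from the GRCm39 genome, 5′ to 3′ on the strand of the gene. Capitals mark the letters TTCNNNGAA, the form of the interferon-gamma activated site to which STAT factors bind.

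Irf8, chr8:121462847-121463096: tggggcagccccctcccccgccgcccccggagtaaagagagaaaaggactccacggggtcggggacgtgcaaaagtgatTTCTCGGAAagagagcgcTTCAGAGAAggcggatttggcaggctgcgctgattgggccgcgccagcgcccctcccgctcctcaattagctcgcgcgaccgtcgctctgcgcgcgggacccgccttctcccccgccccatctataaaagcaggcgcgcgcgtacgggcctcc

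Batf3, chr1:190830272-190830521: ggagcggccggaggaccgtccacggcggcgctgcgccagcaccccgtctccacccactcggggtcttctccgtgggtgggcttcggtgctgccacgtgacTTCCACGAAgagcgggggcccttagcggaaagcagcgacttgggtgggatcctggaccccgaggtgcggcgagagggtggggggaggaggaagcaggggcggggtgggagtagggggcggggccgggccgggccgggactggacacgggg

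The upstream window of *Irf8* held this pattern at 171 and at 153 bases before the start, and that of *Batf3* held it at 150 bases before the start. No window of the other 8 genes held it. Of all 21757 upstream windows of the same length in the annotation, 7.70% had a match. The pattern was picked after the windows had been looked at, as 1 of 13 that were searched on both strands, and a match in letters is not evidence of binding. Of the other patterns, the full glucocorticoid receptor site (GNACA and TGTNC with 3 bases between them), the AP-1 and BATF site TGANTCA, the PU.1-IRF composite (GGAA and GAAA with 2 bases between them), TTCCNGGAA (which overlaps the capitalized pattern), TGACGTCA, and GGGNNTTCC were in none of the 10 windows. They were in 0.299%, 6.18%, 2.54%, 0.942%, 1.70%, and 5.03% of all windows. The glucocorticoid receptor half-site AGAACA (14.3% of all windows) and the interferon-stimulated element (GAAA and GAAA with 2 bases between them, 3.32%) were in the window of *Dpp4* alone. GAGGAA was in 3 windows (22.9% of all), GGGCGG in 4 (36.3%), TATAAA in 6 (11.9%), and the short GGAA, which is part of several of the others, in all 10 (93.9%).

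*Irf4* (chromosome 13, 30933209 to 30950959), the factor linked to type 2 and monocyte-derived dendritic cells, did not follow *Irf8* and *Batf3*. Its level was 20.6, 15.6, and 13.8 CPM with vehicle, 16.6, 21.0, and 16.6 with spironolactone, and 22.4, 20.2, and 17.3 with prednisolone, and the 3 groups overlapped. Its log2 fold change was −0.14 ± 0.16 for spironolactone against prednisolone (95% confidence interval −0.48 to 0.19; adjusted *P* = 0.645), 0.26 ± 0.16 for prednisolone against vehicle, and 0.12 ± 0.16 for spironolactone against vehicle (adjusted *P* = 0.497 and 0.886). Across the 9 libraries the log2 CPM of *Irf4* and *Irf8* had a Pearson r of −0.33, as a description of libraries that share groups.

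*Zbtb46* (chromosome 2, 181012111 to 181104879) encodes a zinc finger transcriptional repressor by which conventional dendritic cells are recognized. It was at 6.63, 6.46, and 6.54 CPM with vehicle, 5.79, 8.47, and 11.4 with spironolactone, and 10.1, 10.6, and 8.49 with prednisolone. All prednisolone libraries lay above the narrow vehicle range, whereas the spironolactone libraries lay on both sides of it. The log2 fold change was 0.57 ± 0.21 for prednisolone against vehicle (unadjusted *P* = 0.0160, adjusted *P* = 0.212) and 0.39 ± 0.21 for spironolactone against vehicle (adjusted *P* = 0.611). Between the drugs it was −0.18 ± 0.21, with a 95% confidence interval of −0.63 to 0.26. Of the alternatives, only edgeR without the low-count filter called *Zbtb46*, for prednisolone against vehicle (adjusted *P* = 0.0431, with 3.43% of all genes called). The 6 endothelial markers summed to 49.1 to 85.3 CPM with vehicle, 62.3 to 86.3 with prednisolone, and 108 to 168 with spironolactone, with none at 0, and their part in the level of *Zbtb46* was not tested.

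*Flt3* (chromosome 5, 147267551 to 147337483), the receptor tyrosine kinase for Flt3 ligand, was the member nearest to a call against vehicle. It was at 18.2, 13.6, and 15.8 CPM with vehicle, 21.1, 23.0, and 25.8 with spironolactone, and 24.5, 21.7, and 22.2 with prednisolone. Every library of either drug lay above every vehicle library, and the drug groups overlapped each other. The log2 fold change was 0.52 ± 0.13 with prednisolone (1.44-fold; 95% confidence interval 0.25 to 0.79; unadjusted *P* = 0.00100, adjusted *P* = 0.0536) and 0.55 ± 0.13 with spironolactone (1.47-fold; 0.28 to 0.82; unadjusted *P* = 0.000626, adjusted *P* = 0.129). These comparisons share their vehicle libraries. The difference between the drugs was 0.03 ± 0.12 (95% confidence interval −0.24 to 0.30). DESeq2 called *Flt3* in both comparisons with vehicle (adjusted *P* = 0.0113 for prednisolone and 0.0197 for spironolactone). With edgeR, *Flt3* was called for prednisolone against vehicle without vehicle replicate 1 (0.63, adjusted *P* = 0.0102) or spironolactone replicate 1 (0.52, adjusted *P* = 0.0471). It was also called there with library totals and without the low-count filter (3.43% of all genes were called without it). For spironolactone against vehicle edgeR called *Flt3* only without that filter (adjusted *P* = 0.00310, with 1.78% of all genes called). *Flt3l*, named as the gene of the ligand and outside the rule for named genes, was among the 20 genes of the development list and was not called by edgeR.

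The genes of type 1 cells at the surface were low throughout. *Xcr1* (chromosome 9, 123681380 to 123691094), the receptor for the chemokine XCL1 that T and NK cells release, was at 2.77, 3.87, and 2.96 CPM with vehicle, 4.05, 5.63, and 7.88 with spironolactone, and 4.13, 3.00, and 2.76 with prednisolone. All spironolactone libraries lay above the vehicle libraries, and the lowest of them lay just under the highest prednisolone library. The log2 fold change was 0.87 ± 0.27 for spironolactone against vehicle (1.83-fold; adjusted *P* = 0.270), 0.83 ± 0.27 for spironolactone against prednisolone (adjusted *P* = 0.0853), and 0.04 ± 0.27 for prednisolone against vehicle (95% confidence interval −0.54 to 0.62). Between the drugs *Xcr1* was called by DESeq2 (adjusted *P* = 0.0380), by edgeR without the low-count filter (adjusted *P* = 0.0220, with 6.52% of all genes called), and without spironolactone replicate 1. For spironolactone against vehicle it was called only by edgeR without that filter (adjusted *P* = 0.0301, with 1.78% of all genes called). *Xcr1* shares 24.1% of its exon bases with a gene on the opposite strand (*Gm57030*).

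*Clec9a* (chromosome 6, 129385825 to 129401726), a lectin by which type 1 cells bind the actin of dead cells, was at 4.11, 3.15, and 3.74 CPM with vehicle, 3.80, 5.53, and 4.75 with spironolactone, and 3.28, 3.21, and 2.97 with prednisolone. The drug groups did not overlap each other, and both overlapped vehicle. Spironolactone against prednisolone gave a log2 fold change of 0.57 ± 0.21 (adjusted *P* = 0.129). Against vehicle it was 0.36 ± 0.21 with spironolactone and −0.22 ± 0.21 with prednisolone (adjusted *P* = 0.655 and 0.715). *Clec9a* shares 77.1% of its exon bases with *Clec1a* on the opposite strand, so its counts are uncertain.

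*Itgae* (chromosome 11, 72981409 to 73039917), the integrin αE subunit (CD103) that binds E-cadherin and is also carried by some T cells, was at 3.31, 3.03, and 5.45 CPM with vehicle, 3.32, 7.90, and 7.92 with spironolactone, and 5.83, 6.17, and 4.66 with prednisolone. All groups overlapped, and spironolactone replicate 1 lay at the vehicle level while the other two lay above all libraries of the other groups. No comparison was called, with log2 fold changes of 0.70 ± 0.32 for spironolactone and 0.50 ± 0.32 for prednisolone against vehicle (adjusted *P* = 0.532 and 0.535), and 0.20 ± 0.31 between the drugs (adjusted *P* = 0.766).

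*Cd209a* (chromosome 8, 3793397 to 3798984), a C-type lectin of monocyte-derived dendritic cells and of part of the type 2 cells, and *Xcr1* had the largest fitted differences from vehicle among the 10 genes, both with spironolactone and alike within their errors. *Cd209a* was at 31.5, 27.7, and 24.8 CPM with vehicle, 33.1, 56.1, and 65.4 with spironolactone, and 50.4, 40.8, and 39.0 with prednisolone. Every library of either drug lay above every vehicle library, although spironolactone replicate 1 did so by little. The log2 fold change against vehicle was 0.88 ± 0.22 with spironolactone (1.84-fold; unadjusted *P* = 0.00244, adjusted *P* = 0.188) and 0.63 ± 0.22 with prednisolone (1.55-fold; unadjusted *P* = 0.0161, adjusted *P* = 0.213). Without spironolactone replicate 1, *Cd209a* was called against vehicle for both drugs, with 1.12 for spironolactone (adjusted *P* = 0.0134) and 0.63 for prednisolone (adjusted *P* = 0.0201). *Cd209a* belongs to a cluster of similar genes between which reads could be split. Of its 6 paralogs all were tested and edgeR called none. An unadjusted *P* under 0.05 against vehicle was found for 1 with prednisolone and 2 with spironolactone (14.2% and 9.29% of all genes). Against vehicle 4 of the 6 were fitted above 0 with prednisolone and 5 with spironolactone. *Cd209c* was at 2.08 ± 0.115 CPM with vehicle, 3.68 ± 0.451 with prednisolone, and 3.30 ± 0.950 with spironolactone, whereas *Cd209f* was at 0.605 ± 0.435, 0.222 ± 0.154, and 0.496 ± 0.427 CPM.

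*Dpp4* (chromosome 2, 62159798 to 62242576), the surface peptidase CD26 carried by type 1 dendritic cells and many other cells, was at 12.7, 14.5, and 17.2 CPM with vehicle, 14.6, 23.2, and 24.0 with spironolactone, and 17.7, 16.3, and 17.1 with prednisolone. Spironolactone replicates 2 and 3 lay above all other libraries, and replicate 1 lay within the vehicle range. The log2 fold change was 0.48 ± 0.17 for spironolactone against vehicle (unadjusted *P* = 0.0148, adjusted *P* = 0.386), 0.21 ± 0.17 for prednisolone against vehicle (adjusted *P* = 0.652), and 0.27 ± 0.17 between the drugs (adjusted *P* = 0.369). Of the alternatives, only edgeR without the low-count filter called *Dpp4*, for spironolactone against vehicle (adjusted *P* = 0.0350, with 1.78% of all genes called). Among pairs of members, the log2 CPM of *Dpp4* and *Itgae* were most alike over the 9 libraries (Pearson r = 0.91), a description of libraries that share a sort and groups.

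**Figure D2:**
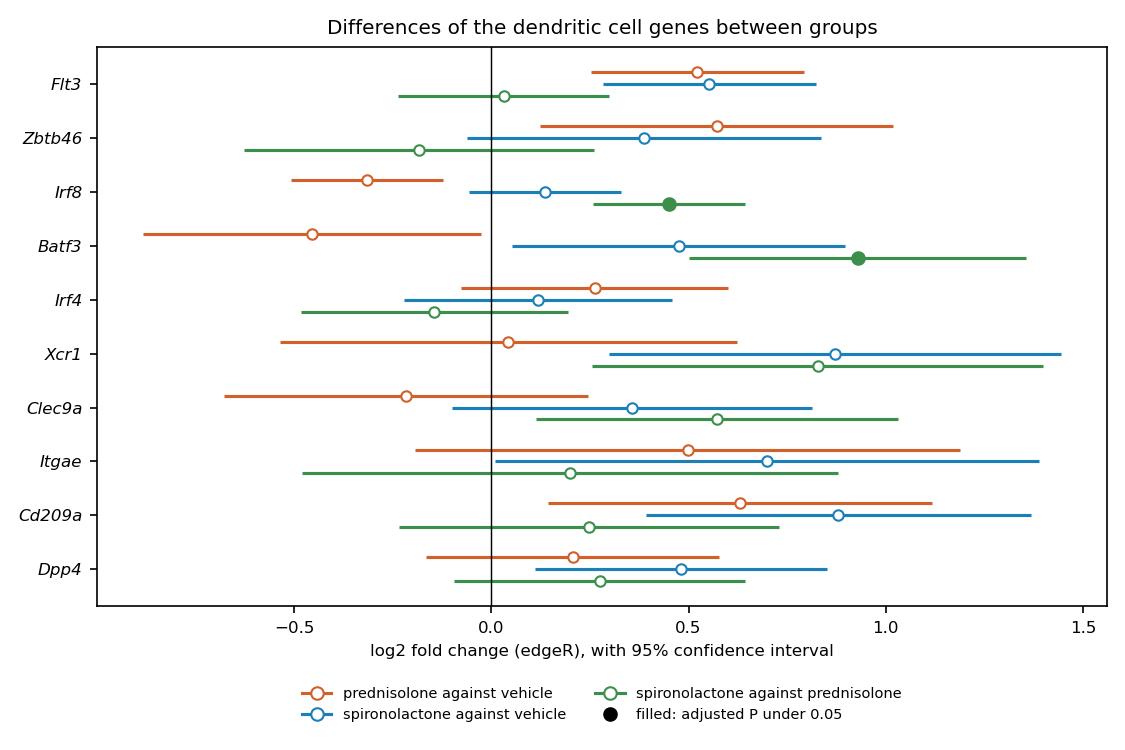
Fitted log2 fold change of each gene with its 95% confidence interval for the 3 comparisons, and filled points for adjusted *P* under 0.05. Filled points are at *Irf8* (0.45) and *Batf3* (0.93) for spironolactone against prednisolone, and all 10 points of spironolactone against vehicle lie above 0.

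Counted over the list, prednisolone against vehicle called 0 of the 10 genes with edgeR, where 1.76% of all genes tested were called, and 5 had an unadjusted *P* under 0.05 (14.2% of all genes). DESeq2 called 3 (*Flt3*, *Cd209a*, and *Irf8*), where it called 4.64% of the genes to which it gave an adjusted *P*. In this comparison 3 members (*Flt3*, *Cd209a*, and *Zbtb46*) lay above vehicle in every library, against 10.4% of all genes, and 2 (*Irf8* and *Batf3*) lay below it, against 9.27%. The median log2 fold change of the 10 genes was 0.23, beside −0.01 over all genes tested.

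Spironolactone against vehicle also called 0 of the 10 genes with edgeR, where only 3 genes of all tested were called (0.0181%). An unadjusted *P* under 0.05 was found for 6 members (*Flt3*, *Cd209a*, *Xcr1*, *Dpp4*, *Batf3*, and *Itgae*), against 9.29% of all genes, and DESeq2 called 2 (*Flt3* and *Cd209a*), where it called 1.60% of the genes with an adjusted *P*. All 10 fitted values lay above 0, with a median of 0.48 beside 9.04e-05 over all genes, and 4 members (*Flt3*, *Cd209a*, *Xcr1*, and *Irf8*) lay above vehicle in every library, against 6.99% of all genes. Between the drugs, 2 of the 10 genes were called with edgeR and 3 with DESeq2 (*Irf8*, *Batf3*, and *Xcr1*), where DESeq2 called 10.1% of the genes with an adjusted *P*. With edgeR 4 had an unadjusted *P* under 0.05 (22.5% of all genes), and 3 (*Clec9a*, *Irf8*, and *Batf3*) were higher in every spironolactone than in every prednisolone library, against 15.1% of all genes. The median was 0.26 beside 0.03 over all genes.

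Markers of other cells also lay above vehicle with spironolactone, and their part in the values of the 10 genes was not tested. All 8 NK cell markers were fitted above 0 (median log2 fold change 0.98), as were all 6 endothelial (1.03), all 6 muscle (0.87), all 4 B cell (1.01), and all 6 fibroblast markers tested (0.41), and 7 of 9 T cell markers (0.54). None of these was called in the edgeR fit reported. In that fit 5 NK, 5 endothelial, 5 muscle, 1 B cell, 3 fibroblast, and 3 T cell markers had an unadjusted *P* under 0.05. The share of all genes was 9.29%. DESeq2 called 4 endothelial, 4 muscle, 1 NK, and 1 fibroblast marker higher (1.60% of the genes with an adjusted *P* were called). Without the low-count filter edgeR called 5 endothelial, 6 muscle, 3 NK, 1 T cell, and 1 fibroblast marker higher (1.78% of all genes were called). It called 1 endothelial marker without vehicle replicate 2, and 1 endothelial and 1 muscle marker without spironolactone replicate 2. All 7 muscle markers listed, tested or not, summed to 357 to 599 CPM with spironolactone against 192 to 292 with vehicle. The fibroblast markers summed to 524 to 760 against 408 to 587 CPM. Of the 10 macrophage markers 5 and of the 8 monocyte markers 0 were fitted above 0.

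Spironolactone replicate 1 was the lowest of its group for 9 of the 10 members (all but *Irf4*), against 37.7% of all genes tested. Without that library the count of members called was 2 for prednisolone against vehicle (*Flt3* and *Cd209a*), 1 for spironolactone against vehicle (*Cd209a*), and 3 between the drugs, where *Xcr1* joined *Irf8* and *Batf3* (log2 fold change 1.03, adjusted *P* = 0.0412). In the same fit 1.97%, 0.0411%, and 4.55% of all genes were called in these comparisons. The median of the 10 genes for spironolactone against vehicle was then 0.62.

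**Figure D3:**
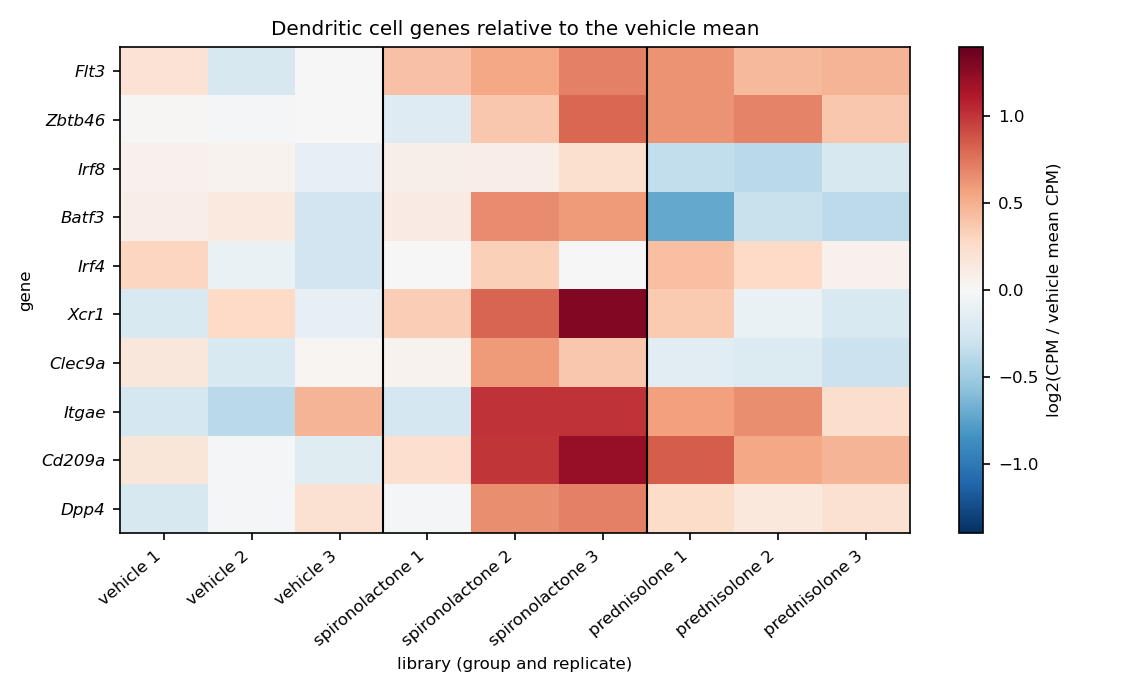
log2 ratio of the CPM of each gene (rows) to its vehicle mean in each of the 9 libraries (columns, grouped by treatment). The column of spironolactone replicate 1 is paler than those of replicates 2 and 3 for most genes, and the rows of *Irf8* and *Batf3* are blue in all prednisolone libraries.

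A further 9 lists of dendritic cell genes were described beside these 10 genes, and the one with the highest share of calls between the drugs and the highest median there was MHC class II presentation. Of its 10 genes, 6 were higher with spironolactone than with prednisolone, against 2.38% of all genes, and 0 were lower, with a median log2 fold change of 0.64. *H2-Oa*, part of the regulator H2-O, was at 4.33, 5.69, and 6.36 CPM with spironolactone and at 2.13, 2.32, and 1.96 with prednisolone (1.35 ± 0.22, adjusted *P* = 0.00478). *H2-Ab1*, the beta chain of I-A, was at 1056, 1650, and 1643 CPM with spironolactone and 869, 773, and 780 with prednisolone (0.84 ± 0.15, adjusted *P* = 0.00732), and *H2-DMb1*, a peptide exchange subunit, gave 0.62 ± 0.14 (adjusted *P* = 0.0242). The others called were *H2-Aa*, *H2-Eb1*, and *Ciita*, named after their values were seen. Against vehicle, edgeR called 0 of the 10 with either drug. An unadjusted *P* under 0.05 was found for 10 with spironolactone and 1 with prednisolone (9.29% and 14.2% of all genes). All 10 were fitted above 0 for spironolactone (median 0.55) and 2 for prednisolone (median −0.13). For spironolactone against vehicle, DESeq2 called 5 (1.60% of all genes with an adjusted *P*), edgeR without the low-count filter 6 (1.78% of all genes), and edgeR without spironolactone replicate 1 called 3 (0.0411%), all higher. The count of 6 became 2 (*H2-Oa* and *H2-Ab1*) when spironolactone replicate 2 or 3 or any 1 prednisolone library was left out, and 8 when spironolactone replicate 1 was. The calls over all genes between the drugs went from 859 to between 232 and 412 in the fits that gave 2, and to 776 in the fit that gave 8. *Ciita* was also lost without vehicle replicate 2 and with library totals as normalization. *H2-Oa* and *H2-Ab1* were called without each of the 9 libraries in turn.

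Among the 9 other genes of the IRF and BATF families, *Irf1*, an interferon-induced activator, was lower with prednisolone. It was at 85.6, 91.9, and 90.1 CPM with vehicle, 90.0, 95.1, and 81.0 with spironolactone, and 65.8, 62.1, and 63.2 with prednisolone. The prednisolone libraries lay below all others, with a log2 fold change of −0.49 ± 0.09 against vehicle (adjusted *P* = 0.0122), and spironolactone against prednisolone gave 0.48 ± 0.09 (adjusted *P* = 0.00781). *Irf1* was the only gene of this list called in either comparison. The other genes with the smallest adjusted *P* between the drugs were *Batf2* (0.52 ± 0.17, adjusted *P* = 0.0957) and *Irf3* (0.23 ± 0.08, adjusted *P* = 0.106).

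Of the 14 other genes of type 2 and monocyte-derived cells, *Itgax*, the integrin CD11c that also marks activated macrophages, was higher with prednisolone than with vehicle (0.80 ± 0.15, adjusted *P* = 0.0197). Its level was 327 ± 6.24 CPM with vehicle, 356 ± 75.4 with spironolactone, and 569 ± 91.8 with prednisolone, so that it was lower with spironolactone than with prednisolone (−0.68 ± 0.15, adjusted *P* = 0.0238). *Clec10a*, a galactose-binding lectin, went the other way between the drugs, at 47.2, 54.8, and 54.5 CPM with spironolactone and 39.2, 38.8, and 34.2 with prednisolone (0.48 ± 0.10, adjusted *P* = 0.0135). *Esam*, an adhesion molecule of a subset of type 2 cells and of endothelium, was at 9.37 ± 1.64 CPM with spironolactone and 4.55 ± 1.28 with prednisolone (1.04 ± 0.24, adjusted *P* = 0.0271), and *Cd7*, named after its value was seen, was the third gene higher. Against vehicle, edgeR called 0 of the 14 with spironolactone, and 4 had an unadjusted *P* under 0.05 (9.29% of all genes). In this comparison DESeq2 called 3 and edgeR without the low-count filter 5, all higher, where 1.60% and 1.78% of all genes were called. *Clec10a* (1.37-fold, adjusted *P* = 0.120), *Esam* (2.49-fold, adjusted *P* = 0.105), and *Cd7* (1.74-fold, adjusted *P* = 0.187) lay above vehicle in every spironolactone library. Of these *Esam* is shared with the endothelium, whose 6 markers were 1.03 higher at the median between the drugs with 2 called. The part of the endothelium in the level of *Esam* was not tested. Of the 12 other genes of type 1 cells edgeR called 0 in each comparison. For prednisolone and spironolactone against vehicle and for spironolactone against prednisolone, 4, 3, and 1 had an unadjusted *P* under 0.05. Over all genes the shares were 14.2%, 9.29%, and 22.5%. The medians of the 12 genes were 0.23, 0.25, and 0.07 in the same order. The smallest adjusted *P* of that list was that of *Cd24a* with prednisolone against vehicle (−0.49 ± 0.13, adjusted *P* = 0.0746). For prednisolone against vehicle 1 gene of that list was called lower by DESeq2 (4.64% of all genes with an adjusted *P*), with the replicate block (2.02% of all genes), and without vehicle replicate 1 (4.83%), and 1 higher without vehicle replicate 3 (1.04%). Without the low-count filter 1 was higher and 1 lower there (3.43% of all genes were called), and 2 were higher for spironolactone against vehicle. Between the drugs 1 was higher without vehicle replicate 1, where 11.1% of all genes were called.

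In the list of 20 development genes, *Id2*, a repressor of E proteins that type 1 cells need, was lower with prednisolone than with vehicle (94.4 ± 14.8 against 136 ± 6.05 CPM; −0.53 ± 0.11, adjusted *P* = 0.0256). *Csf2rb*, the shared receptor chain for GM-CSF, was lower with spironolactone than with prednisolone (310 ± 43.8 against 404 ± 18.5 CPM; −0.38 ± 0.10, adjusted *P* = 0.0486). *Nfil3*, a further factor of type 1 cell development, gave −0.69 ± 0.17 with prednisolone and −0.67 ± 0.17 with spironolactone against vehicle (adjusted *P* = 0.0639 and 0.173). Of the 14 migratory genes tested, *Cd40* was higher (0.85 ± 0.17, adjusted *P* = 0.0119) and *Cd80* lower (−0.90 ± 0.17, adjusted *P* = 0.0151) with spironolactone than with prednisolone. Both encode costimulatory proteins. Of the 8 plasmacytoid genes tested, *Bst2*, an interferon-induced tetherin of many cells, was the 1 called (0.52 ± 0.14 between the drugs, adjusted *P* = 0.0474), a call lost with library totals as normalization.

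Among 6 ligands and partners of the member proteins, *Ada*, adenosine deaminase, which binds the human DPP4 protein, was lower with prednisolone than with vehicle (30.8 ± 1.90 against 40.8 ± 1.10 CPM; −0.41 ± 0.09, adjusted *P* = 0.0357), a call lost in the fit of these 2 groups alone. Between the drugs it was higher with spironolactone (0.48 ± 0.09, adjusted *P* = 0.0100). *Xcl1*, the ligand of XCR1, was near the lower limit of the counts, at 1.31 ± 0.277 CPM with spironolactone, 0.271 ± 0.0871 with prednisolone, and 0.488 ± 0.424 with vehicle, and was not called (adjusted *P* = 0.0570 between the drugs). *Cdh1*, which encodes the E-cadherin bound by integrin αE, was at 2.36 ± 0.537 CPM with vehicle and 4.50 ± 0.694 with prednisolone (0.93 ± 0.24, adjusted *P* = 0.0725).

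Outside MHC class II, 10 of the 89 genes tested in these lists were called between the drugs (11.2%, beside 5.17% of all genes) and 4 for prednisolone against vehicle (4.49%, beside 1.76%). Of these 14 calls, 0 held when prednisolone replicate 2 was left out, where the calls over all genes went from 859 to 232 between the drugs and from 293 to 69 against vehicle. For *Irf1* between the drugs that was the single library with this effect (adjusted *P* = 0.0501), and against vehicle its call also ended without vehicle replicate 2 or prednisolone replicate 3. The calls of *Cd40* and *Ada* between the drugs also ended without 1 more library (spironolactone replicates 2 and 3, respectively), that of *Itgax* without prednisolone replicate 3, and that of *Cd80* without spironolactone replicate 3 or prednisolone replicate 1. The calls of *Id2* and *Itgax* against vehicle ended without prednisolone replicate 3 or vehicle replicate 2, and for *Itgax* also without vehicle replicate 3. *Clec10a* and *Esam* lost theirs without spironolactone replicate 3 or prednisolone replicate 3, and further without spironolactone replicate 2 and spironolactone replicate 1, respectively. *Cd7*, *Csf2rb*, *Bst2*, and *Ada* against vehicle each lost theirs without any 1 of 5 or more libraries. The highest adjusted *P* over the libraries left out was 0.0501 to 0.209 for these 14 calls, and no log2 fold change changed sign.

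**Figure D4:**
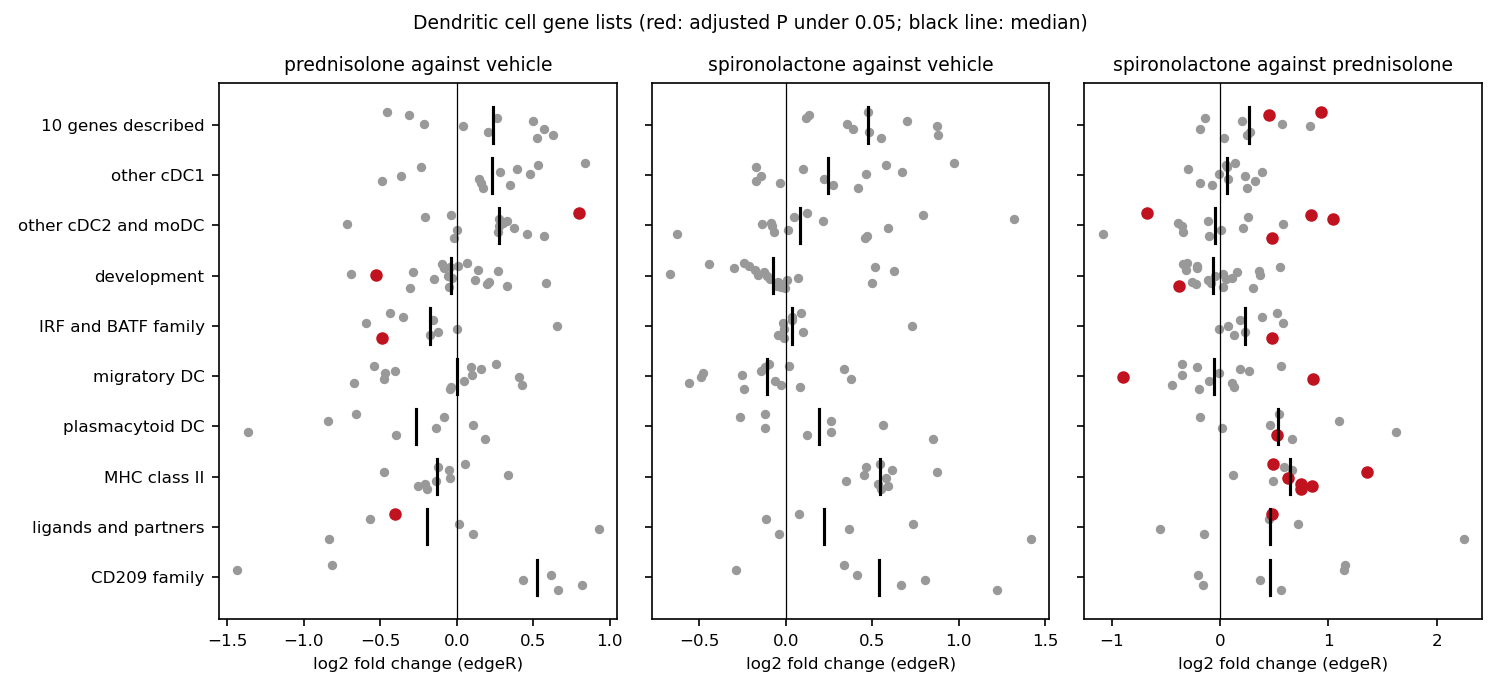
Fitted log2 fold changes of the 10 genes and of the 9 further dendritic cell lists in the 3 comparisons, 1 point a gene, with red points for adjusted *P* under 0.05 and a black line at each median. In spironolactone against prednisolone, MHC class II has 6 red points above 0 and a median of 0.64, and the 10 genes have 2 red points and a median of 0.26.

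Markers of other cells differed between the drugs too, where 5.17% of all genes were called and 2.38% were higher with spironolactone. The 8 NK cell markers summed to 23.6 to 35.7 CPM with spironolactone, 12.9 to 17.7 with prednisolone, and 13.5 to 23.8 with vehicle, and 5 of 8 were higher with spironolactone than with prednisolone. Of 9 T cell markers 3 were higher and 0 lower, with 8 fitted above 0. *Il7r*, not called in the edgeR fit reported, made up most of the T cell sum, at 149 to 216 CPM with spironolactone, 219 to 239 with prednisolone, and 199 to 219 with vehicle. The other 8 summed to 39.9 to 51.8, 17.1 to 24.4, and 27.9 to 37.2 CPM. Of 4 B cell markers tested 2 were higher. All 6 B cell markers listed, tested or not, summed to 8.80 to 12.3, 3.88 to 6.39, and 6.46 to 8.69 CPM with spironolactone, prednisolone, and vehicle. *Ighm* was listed at 0 in all libraries. Of 4 eosinophil markers tested 3 were higher with spironolactone than with prednisolone, and 3 were lower with prednisolone than with vehicle. All 5 eosinophil markers listed summed to 31.8 to 50.7 CPM with spironolactone, 17.8 to 22.8 with prednisolone, and 39.4 to 67.0 with vehicle. Of 10 macrophage markers 2 were higher and 1 lower, at sums of 10202 to 11376 CPM with spironolactone, 8563 to 9506 with prednisolone, and 9025 to 10660 with vehicle. Of 10 genes of mitosis 6 were higher with prednisolone in both of its comparisons, at 610 to 696 CPM against 394 to 448 with spironolactone and 311 to 495 with vehicle. Of 8 monocyte markers 1 was lower with spironolactone than with prednisolone, and 0 of 8 neutrophil, 0 of 6 fibroblast, and 0 of 6 muscle markers tested were called between the drugs. The counts between the drugs moved without 1 library. The NK cell count of 5 was 2 without spironolactone replicate 3 or prednisolone replicate 1 or 2, 3 without spironolactone replicate 1 or prednisolone replicate 3, and 7 with DESeq2. The eosinophil count of 3 was 1 without spironolactone replicate 2 or 3 or any 1 prednisolone library. The T cell count of 3 higher was 2 to 4, the B cell count of 2 was 0 (without prednisolone replicate 2) to 3, and the endothelial count of 2 was 1 to 5 (without vehicle replicate 1). The T cell count of 0 lower was 1 without vehicle replicate 1 or spironolactone replicate 1. It was also 1 with DESeq2, with the replicate block, and without the low-count filter. No macrophage marker was called without spironolactone replicate 2 or 3 or prednisolone replicate 1 or 2. The monocyte count of 1 lower was 3 without vehicle replicate 1. The neutrophil count of 0 was 2 higher without vehicle replicate 3. The fibroblast and muscle counts of 0 were each 1 higher without spironolactone replicate 2. With DESeq2 3 monocyte markers were lower, and 1 neutrophil and 2 muscle markers were higher. The 6 mitosis genes lower with spironolactone became 0 without spironolactone replicate 2 or prednisolone replicate 2 or 3, 1 without spironolactone replicate 1, 2 without prednisolone replicate 1, and 3 without spironolactone replicate 3. Against vehicle the 6 higher with prednisolone became 2 without prednisolone replicate 2 and 9 without vehicle replicate 1. The part of these cells in the levels of *Irf8*, *Batf3*, and MHC class II was not tested.

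For prednisolone against vehicle, where *Irf8* and *Batf3* were fitted below 0 and 1.76% of all genes were called, 0 of 4 eosinophil markers (median log2 fold change −1.50), 0 of 4 B cell (−1.22), 1 of 8 NK cell (−0.56), 1 of 9 T cell (−0.68), and 2 of 8 neutrophil markers (−0.93) were fitted above 0. Of these, 3 eosinophil markers and 1 T cell marker were called lower in the edgeR fit reported. The eosinophil count of 3 was 0 without prednisolone replicate 1 or 2, and 1 without prednisolone replicate 3. It was 2 without vehicle replicate 2 or 3 or spironolactone replicate 3. The T cell count of 1 was 0 without prednisolone replicate 1 or 2. The NK cell count of 0 was 1 lower without vehicle replicate 1 or spironolactone replicate 2. DESeq2 called 4 eosinophil, 2 NK cell, and 1 T cell marker lower (4.64% of all genes with an adjusted *P*). Without the low-count filter edgeR called 5 neutrophil, 4 eosinophil, 3 NK cell, and 2 T cell markers lower. Of the 10 macrophage markers 4 (−0.17), of the 8 monocyte markers 4 (0.06), and of the 6 endothelial markers 4 (0.07) were fitted above 0. So were 4 of the 6 fibroblast markers (0.05) and 6 of the 6 muscle markers (0.52). In the edgeR fit reported 0 of the markers of these lists were called. DESeq2 called 1 macrophage, 1 monocyte, and 1 muscle marker higher. Without the low-count filter (3.43% of all genes called) edgeR called 1 macrophage, 3 monocyte, 1 fibroblast, and 4 muscle markers higher. In that fit 1 macrophage and 2 monocyte markers were lower. With edgeR 1 macrophage marker was higher without vehicle replicate 1, 1 monocyte marker without vehicle replicate 2, and 1 muscle marker without prednisolone replicate 3. Their part in the values of the 10 genes was not tested.

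Over the 9 libraries, the genes whose log2 CPM was most like that of *Irf8* were *Fam117a* (Pearson r = 0.99), *Alox15* (0.98), and *Prkcq* (0.98), and those most like *Batf3* were *Aspscr1* (0.99), *C1qb* (0.97), and *Rnf167* (0.97). For *Flt3* they were *Kbtbd6*, *Sigirr*, and *Lrrc7* (0.95 to 0.91), and for *Cd209a* *Kif1a*, *Gm14399*, and *Tmem223* (0.97 to 0.94). With 9 libraries and 16618 genes, values of this size are a description only. *C1qb*, a macrophage complement gene, was itself higher with spironolactone than with prednisolone (0.62, adjusted *P* = 0.0154).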

How the data were processed

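RNA-Seq was available for 9 libraries of sorted myeloid cells (CD45+CD11b+) from *mdx* quadriceps, 3 per group. The authors made the deposited counts, whole numbers per gene without normalization, by alignment to mm39 with HISAT2 2.2.1 and counting with HTSeq 0.11.3, as the submitters' processing notes and the paper give it. The strand setting and annotation release are not given in the sources used here. Lines that name no gene (17.2% to 21.8% of a library) were left out. The authors' tables of DESeq2 1.32.0 fold changes and adjusted p-values were not used.

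Counts were analyzed in R 4.3.3 with edgeR 4.0.16 (filterByExpr with a minimum count of 10 and a minimum total of 15, TMM factors of 0.980 to 1.03, glmQLFit with robust=TRUE, all 9 libraries in one fit, two-sided). Benjamini-Hochberg adjustment covered the 16618 genes tested, and the threshold was 0.05. Alternatives were DESeq2 1.42.0, RLE size factors, library totals, a minimum of 10 counts in every library, no filter other than a total of 1 count, a replicate block, fits of 2 groups, and fits without each library; TPM by summed exons and counts of the lists without each library and T cell sums without *Il7r* were added after the data were seen. The fit was tested on simulated data. Positions, lengths, and upstream windows came from GENCODE on GRCm39, the same assembly as mm39, with 40303 of 50559 symbols matched holding 91.0% or more of each library.

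Named were all 10 members and, for each further dendritic cell list and comparison, those 3 genes, or fewer, whose adjusted P was lowest; genes outside that rule are marked in the text. For each of some members the 3 genes with the highest Pearson r are given. The members and lists were chosen with earlier results of these data known. Replicates are pools of mice, and the p-values weigh differences between groups against the spread between such pools.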

Additional observations from a re-analysis of the deposited data

How the results depend on the processing

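Each group held 3 pools, and the 10 genes had 91 to 9794 counts in a library. Calls of the dendritic cell genes moved with the tool and with single libraries; the cause was not tested. For prednisolone against vehicle the count of the 10 genes called was 0 in the fit reported and 0 to 2 without 1 library. It was 1 with library totals only (*Flt3*, with 297 of 16618 genes called) and 1 in the fit of 2 groups (*Cd209a*, with 239 of 15921). It was 3 with DESeq2 (4.64% of the genes with an adjusted *P* were called). Without the low-count filter it was 3 (*Flt3*, *Cd209a*, and *Zbtb46*). For spironolactone against vehicle it was 0, with 4 without the filter (*Flt3*, *Cd209a*, *Xcr1*, and *Dpp4*), 2 with DESeq2, and 0 to 1 without 1 library. Between the drugs it was 2, with 3 without the filter, 3 with DESeq2, and 0 to 3 without 1 library, with 0 without spironolactone replicate 3, prednisolone replicate 1, or prednisolone replicate 2.

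The counts over all genes moved likewise. Prednisolone against vehicle called 293, with 1019 without the filter, 684 with DESeq2, and 69 to 826 without 1 library. Spironolactone against vehicle called 3, with 528 without the filter, 263 with DESeq2, 8 with a replicate block, and 0 to 34 without 1 library. Spironolactone against prednisolone called 859, with 1940 without the filter, 1598 in the fit of 2 groups, 1594 with DESeq2, and 232 to 1898 without 1 library.

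Fitted signs of members changed only in comparisons that were not called. *Flt3* between the drugs was at -0.00513 with library totals and ranged from -0.0498 to 0.098 without 1 library. *Zbtb46* between the drugs ranged from -0.45 to 0.0326 (0.0326 without spironolactone replicate 1), *Xcr1* for prednisolone against vehicle from -0.15 to 0.20, and *Irf4* for spironolactone against vehicle from -0.00629 to 0.30. Libraries with the same replicate number did not deviate together (r of -0.04 to 0.15), so the numbers were not taken as pairs; the replicate block left the calls of the 10 genes at 0, 0, and 2.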
